A study of Mus musculus with 6 samples.

Results

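Potassium channels are the subject here, as 95 genes that encode channel subunits in the mouse uterus at mid-pregnancy. They were taken from a deposited table of 24964 gene symbols as every symbol that begins with Kcn, continues with further letters and then a number, plus Abcc8 and Abcc9, the sulfonylurea receptors that sheathe some of these channels. The rule matched 99 rows, and 4 of them (Kcnd3os, Kcnmb4os1, Kcnmb4os2 and Kcnq1ot1) are antisense transcripts in the annotation and were kept apart. Of the 95, 52 belong to the voltage-gated channels and their helper proteins, 12 to the calcium-activated group (with the related sodium-activated and sperm channels), 17 to the inward rectifiers and 14 to the two-pore channels. RNA was sequenced from uterine tissue around implantation sites on gestation day 13, with 3 control libraries and 3 labelled as a knockout of PGR (the progesterone receptor, encoded by Pgr) in the myometrium, the muscle of the uterus. The means of removing the receptor, the strain, the age of the mice and whether each library had its own animal were all not given in the sources used here. Each p-value therefore reflects the spread among these 6 libraries, which may be technical. Values are given as FPKM, by name fragments scaled to gene length and to library size, and levels are compared between genes on that basis. The exact formula was not given.

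A potassium channel lets potassium leave the cell and pulls the membrane voltage down, away from the point where calcium channels open and smooth muscle contracts. Voltage-gated channels open on depolarisation, calcium-activated channels open when calcium rises, inward rectifiers hold the resting voltage, and two-pore channels give a steady leak. In the myometrium such channels are known for keeping the muscle quiet through pregnancy, and in epithelia some of the same families recycle potassium during fluid transport.

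The level of Pgr did not separate the groups, at 9.72, 8.33 and 12.1 FPKM in controls, against 11.3, 12.4 and 7.73 FPKM in the others, so the second group is named by its label (deficient-labelled libraries), and every direction rests on that label. A gene-level value of whole uterus is a weak check of a deletion in muscle, and the deleted part of Pgr is unknown here. The 10 smooth muscle markers (Actg2, Acta2, Myh11, Cnn1, Des, Tagln, Smtn, Synpo2, Lmod1 and Mylk) all fell, and their summed level was 8265 to 10099 FPKM in controls, against 3383 to 3987 FPKM in the deficient-labelled libraries. In these whole-tissue samples, fewer cells of a type and less RNA per cell cannot be told apart. Other marker lists moved less uniformly. Of 8 epithelial markers, 2 rose and 0 fell (summed level 762 to 901 against 893 to 1279 FPKM). Of 8 mural cell markers of vessels 2 fell and 0 rose (236 to 250.2 against 215 to 219 FPKM). The mural list was mixed, with a median difference of 0.14 on the log2(FPKM + 1) scale and a range of -0.56 to 0.18. Of 8 endothelial and 6 tested leukocyte markers none passed. Of 5 mast cell markers tested 4 fell, of 4 striated muscle markers tested 2 fell and of 2 nerve markers tested 1 fell. Differences ran from -1.55 to 0.40 in the striated muscle list and from -1.22 to 0.14 in the nerve list. These lists held 8 and 9 markers, the rest being too low to test. Over all 12500 genes tested with limma at an adjusted p of 0.05, 1.34% were called higher and 1.99% lower. None of 7 decidual markers tested passed. The summed level of the decidual list was nonetheless 215 to 503 FPKM in controls, against 134 to 173 FPKM in the deficient-labelled libraries. Differences within the decidual list ran from -4.50 to 0.51 on the log2(FPKM + 1) scale, with a median of 0.02. Most of the fall in the sum came from 1 marker, the one at -4.50, and not from the list as a whole. Trophoblast markers summed to at most 1.71 FPKM, with Hand1 and Gcm1 listed at 0. The part of these cell types in the results below was not tested. Replicate 3 was the least alike within either group, with a correlation across genes of 0.983 and 0.982 to the other controls and of 0.976 and 0.971 to the other deficient-labelled libraries, where the remaining pairs within a group reached 0.992 and 0.991.

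Most of the 95 subunits were scarce. Their level averaged at least 1 FPKM over the 6 libraries in 26 of them, between 0.1 and 1 FPKM in 27, and above 0 but under 0.1 FPKM in 33. The remaining 9 (Kcna4, Kcna10, Kcnh5, Kcnh8, Kcnk9, Kcnk15, Kcnk16, Kcnmb3 and Kcnmb4) were listed at 0 throughout. Low values of single-transcript genes came nearest to whole reads for a library size of between 36650000 and 36950000 reads, where 67.5% to 71.7% of 766 to 809 values per library lay within 0.1 of a whole read. On that estimate 1 FPKM stands for about 37 reads on each kilobase (36.65 to 36.95 by library), and reads per kilobase below are approximate. It was not determined whether that size is each library's own depth or a common size.

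Kcne2 and Kcnk1, of different families, held most of the signal. Kcne2, a single-pass helper of several voltage-gated channels, stood highest at 92.4, 125 and 147 FPKM in controls, against 178, 118 and 143 FPKM in the deficient-labelled group. Kcnk1, the two-pore channel TWIK-1, followed at 88.0, 94.9 and 101 FPKM against 125, 117 and 158 FPKM. Kcne4 was the third and Kcnj8 the fourth. Together the 95 genes took 0.0890% to 0.115% of the summed FPKM of a library, and the sum over all 95 was 369 ± 38 FPKM in controls, against 401 ± 38 FPKM in the deficient-labelled libraries (SD, n = 3 each).

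**Figure D1:**
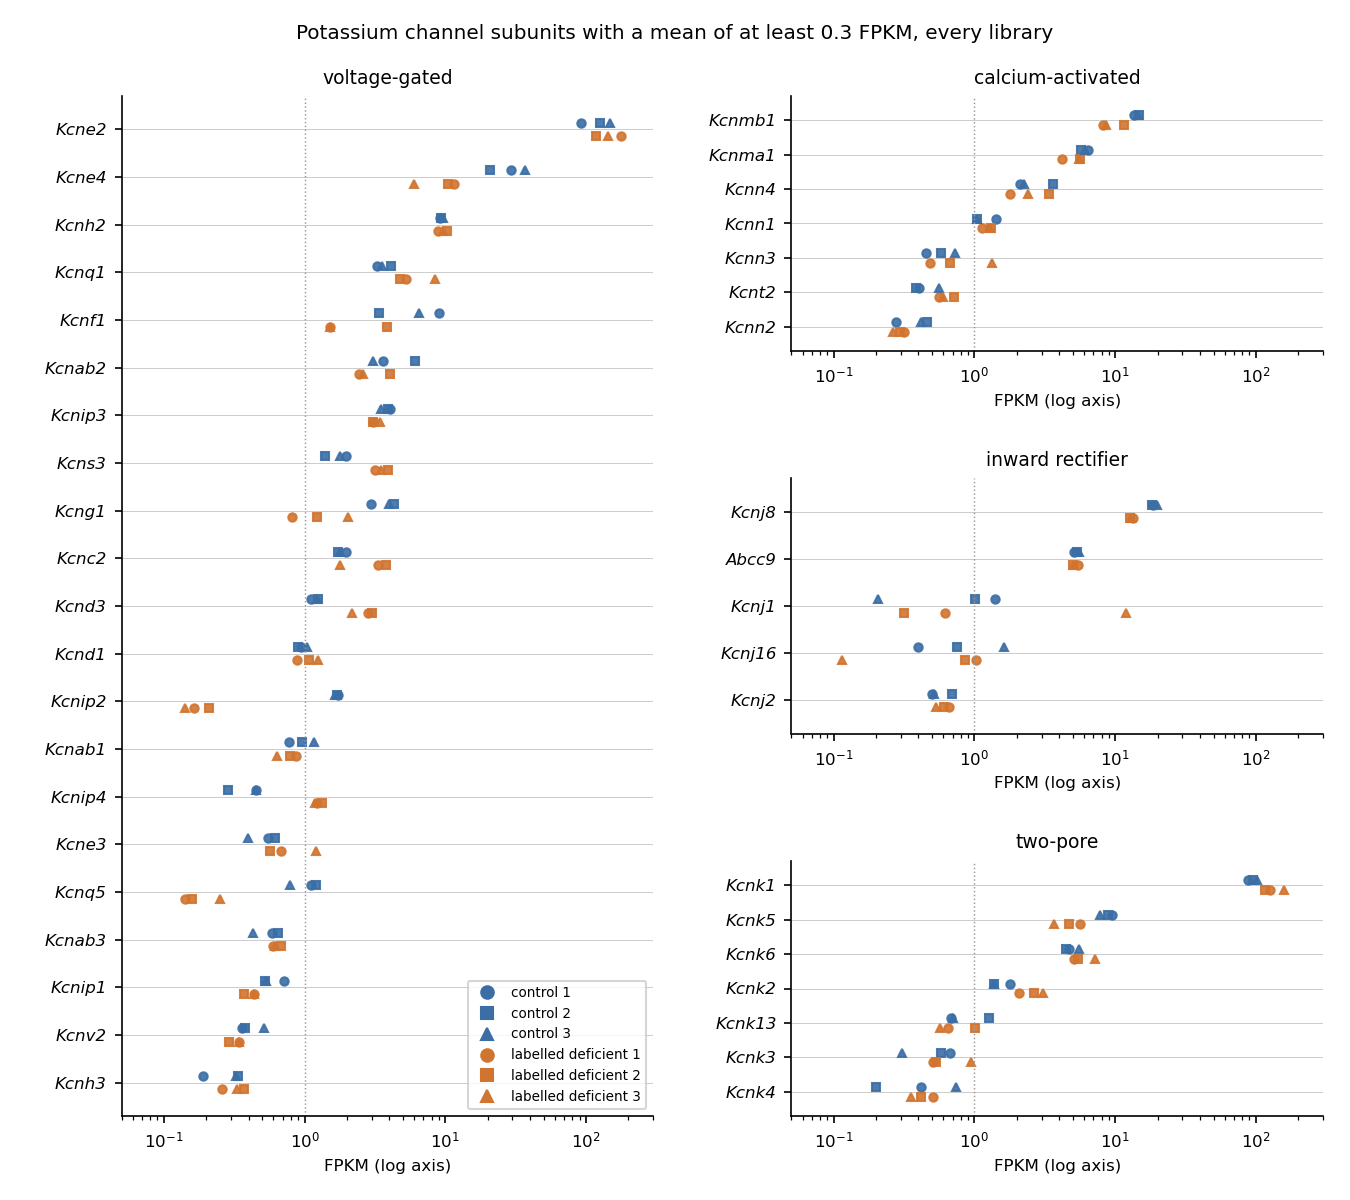
FPKM on a log axis for subunits with a mean of at least 0.3 FPKM, by family, with 1 point per library (blue, control; orange, labelled deficient; marker shape, replicate number) and a dotted line at 1 FPKM. Kcne2 and Kcnk1 lie near 100 FPKM, far to the right of all others, while Kcnip2 and Kcnq5 lie well to the left in orange and Kcnip4 in blue.

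Of the 26 subunits tested, 2 rose and 3 fell in the deficient-labelled libraries with limma at an adjusted p of 0.05, a share of 19.2% where 3.34% of all 12500 genes tested were called (1.34% higher and 1.99% lower). Kcnd3 and Kcns3 rose, and Kcne4, Kcnk5 and Kcnj8 fell. The median difference of the 26 was 0.003 on the log2(FPKM + 1) scale, beside 0.06 for all genes tested, and single subunits ran from -1.54 to 0.74. Every limma difference below is on this scale, also where only log2 is written. It is therefore smaller than the log2 of the ratio of FPKM, most of all for low genes. The 3 values of one group lay wholly above those of the other in 13 of the 26, with 5 higher and 8 lower, where 29.0% of all genes tested were separated, 20.8% upwards and 8.16% downwards. A fit with no filter on low values tested 86 subunits and called 4 higher and 3 lower, where 0.576% and 1.06% of 19958 genes were called (1.63% in all). It kept Kcnd3, Kcns3 and Kcnj8 and added Kcnip2, Kcnip4, Kcnq5 and Kcnh1, whose means over all libraries were under 1 FPKM. In it Kcne4 (adjusted p = 0.077) and Kcnk5 (adjusted p = 0.068) no longer passed with limma. With a pseudocount of 0.1 as well, the counts were again 4 and 3, where 0.767% and 1.23% of all genes were called (1.99% in all). Without replicate 3 of both groups, 4 subunits were called higher and 4 lower, where 4.93% and 5.26% of all genes were called (10.2% in all). Most calls were lost with 1 library left out. With any 1 library left out other than labelled deficient 3, the limma share called over all genes was between 0.792% and 2.34%, and 0 subunits were called higher and at most 1 lower.

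**Figure D2:**
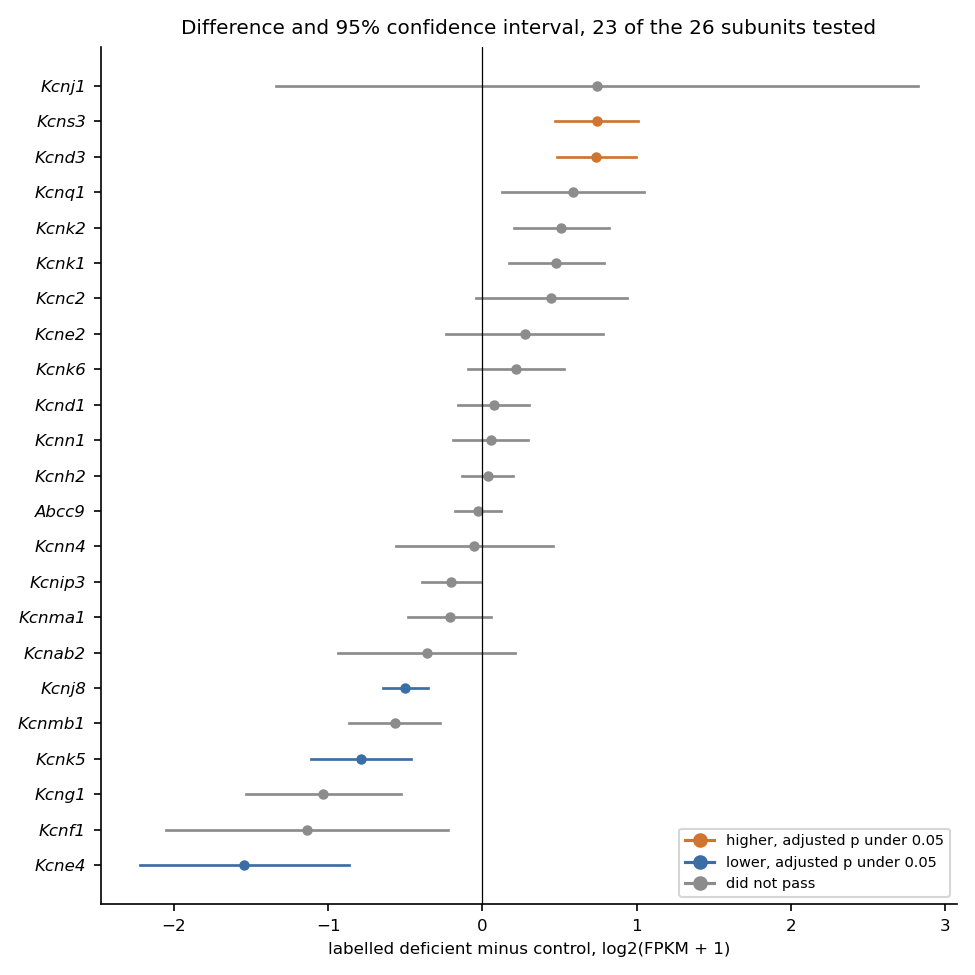
Difference between the deficient-labelled libraries and the controls on the log2(FPKM + 1) scale for 23 of the 26 subunits tested, as limma estimates (points) with 95% confidence intervals (lines). Called subunits are coloured: Kcnd3 and Kcns3 lie at 0.74 and Kcnj8, Kcnk5 and Kcne4 at -0.50, -0.79 and -1.54.

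Kv4 channels carry a transient, A-type voltage-gated current together with small calcium-binding partners called KChIPs. Kcnip2 encodes KChIP2, the partner that brings Kv4 channels to the surface and slows their inactivation, and it lies on chromosome 19 from 45791839 to 45816061 on the minus strand. Its level was 1.73, 1.71 and 1.64 FPKM in controls, against 0.164, 0.208 and 0.141 FPKM in the deficient-labelled group. The groups were far apart and narrow within, with means of 1.69 ± 0.05 and 0.171 ± 0.034 FPKM (SD, n = 3 each), a level 9.89 times lower. In estimated reads this was 60.2 to 63.8 per kilobase against 5.21 to 7.62. Because the mean over all libraries was 0.931 FPKM, Kcnip2 entered only the fit with no filter, where it fell by 1.20 on the log2(FPKM + 1) scale (SE 0.05, limma adjusted p = 0.0020) and by 2.73 with a pseudocount of 0.1 (limma adjusted p = 0.0054). It was still called with any 1 library left out (limma adjusted p up to 0.026). Kcnip2, Kcnip4 and Kcnh1 were singled out after their values were seen.

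The level of a Kv4 pore gene went the other way. Kcnd3, which encodes Kv4.3 (chromosome 3, 105452330 to 105674002, plus strand), was at 1.11, 1.24 and 1.22 FPKM in controls, against 2.84, 3.00 and 2.19 FPKM in the deficient-labelled group. No value of one group reached the other, and the level was 2.24 times higher (log2(FPKM + 1) difference 0.74, SE 0.11, 95% confidence interval 0.49 to 0.99, limma adjusted p = 0.021). The call was lost without control 1, control 2, control 3, labelled deficient 1 or labelled deficient 2 (limma adjusted p up to 0.10). The antisense transcript Kcnd3os, which overlaps Kcnd3 on the opposite strand over 626 bases, was at 0.05, 0.1 and 0.025 FPKM against 0.199, 0.375 and 0.348 FPKM and missed the threshold (limma adjusted p = 0.082 with no filter). The use of strand in counting was not given in the sources used here, and without it reads of overlapping genes cannot be told apart, which also bears on Kcnip4 (5730480H06Rik), Kcnh1 (Hhat), Kcnq1 (Kcnq1ot1), Kcnmb1 (Kcnip1), Kcne4 (Gm29536), Abcc9 (5330439B14Rik), Kcnma1 (4930519K11Rik) and Kcnt2 (4930590L20Rik), among others. Among the other Kv4 pores, Kcnd1 was at 0.890 to 1.24 FPKM in all libraries and Kcnd2 under 0.1 FPKM.

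Within the KChIP family Kcnip4 moved opposite to Kcnip2. Kcnip4, whose protein KChIP4 has forms that keep Kv4 channels from inactivating, was at 0.448, 0.285 and 0.450 FPKM in controls, against 1.23, 1.33 and 1.19 FPKM in the deficient-labelled group. It was thus 3.17 times higher without overlap, and rose by 0.69 on the log2(FPKM + 1) scale with no filter (SE 0.07, limma adjusted p = 0.014). That call was lost without any single library except labelled deficient 3 (limma adjusted p up to 0.077). Kcnip3, whose protein also acts as a calcium-regulated repressor of transcription, was the most abundant of the family at 3.83 ± 0.30 and 3.20 ± 0.23 FPKM (SD, n = 3 each), lower without overlap, and did not pass (log2 difference -0.20, limma adjusted p = 0.21). In each library, the level of Kcnip2 was 1.34 to 1.55 times that of Kcnd3 in the controls and 0.0578 to 0.0693 times in the deficient-labelled libraries. The ratio of Kcnip4 to Kcnd3 was 0.230 to 0.403 and 0.434 to 0.545.

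The promoters of Kcnip2 and Kcnd3 are shown because this partner and its pore changed in opposite directions, as the 250 bases before each RefSeq start site (GRCm38.p6), 5′ to 3′ on the gene's strand, with CpG dinucleotides in capitals.
Kcnip2, chr19:45816064-45816313, minus strand: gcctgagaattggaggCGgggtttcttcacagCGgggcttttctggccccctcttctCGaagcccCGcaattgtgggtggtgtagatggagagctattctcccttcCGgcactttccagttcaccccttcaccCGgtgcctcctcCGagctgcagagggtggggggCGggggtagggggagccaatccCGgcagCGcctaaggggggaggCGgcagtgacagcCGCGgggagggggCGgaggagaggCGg
Kcnd3, chr3:105451640-105451889, plus strand: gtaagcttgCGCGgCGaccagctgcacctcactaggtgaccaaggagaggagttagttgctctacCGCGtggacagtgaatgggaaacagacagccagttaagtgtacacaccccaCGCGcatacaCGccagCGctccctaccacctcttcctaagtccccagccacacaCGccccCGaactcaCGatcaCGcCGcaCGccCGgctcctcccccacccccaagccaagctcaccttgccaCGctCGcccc
Both windows are rich in CpG, with 15 in Kcnip2 and 18 in Kcnd3, where the median of 32851 RefSeq windows is 6 and 27.3% and 21.7% of them hold as many or more. Neither window, read from 250 bases before to 50 after the start, holds a full progesterone and glucocorticoid receptor element, searched on both strands.

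Among the other pores of the voltage-gated family, the Kv7 group was divided. Kv7 channels open near the resting voltage and are blocked by drugs that raise uterine contraction. Kcnq5, the Kv7.5 gene (chromosome 1, 21398403 to 21961942, minus strand), was at 1.12, 1.21 and 0.794 FPKM in controls, against 0.141, 0.159 and 0.250 FPKM in the deficient-labelled group. All 3 controls stood clear of the other group, and the mean was 5.68 times lower. With no filter it fell by 0.78 on the log2(FPKM + 1) scale (SE 0.09, limma adjusted p = 0.022), a call lost without control 1, control 2 or any deficient-labelled library (limma adjusted p up to 0.12). Kcnq1, the Kv7.1 gene of heart and of epithelia, lay on the other side at 3.27, 4.10 and 3.55 FPKM against 5.23, 4.74 and 8.39 FPKM, without overlap but short of the threshold (log2 difference 0.59, SE 0.19, limma adjusted p = 0.16). Kcnq1 shares its locus with the antisense transcript Kcnq1ot1, which was at 0.116 ± 0.024 and 0.115 ± 0.013 FPKM (SD, n = 3 each). Kcnq3 was at or under 0.009 FPKM in every library.

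Kcne4, an accessory subunit that can silence Kv7.1, had the largest difference of the 26 (chromosome 1, 78816758 to 78820028, plus strand). It was at 29.4, 20.6 and 36.8 FPKM in controls, against 11.6, 10.4 and 5.98 FPKM in the deficient-labelled group. The controls spread widely but stayed clear of the other group, and the mean was 3.10 times lower (log2 difference -1.54, SE 0.28, 95% confidence interval -2.22 to -0.86, limma adjusted p = 0.042). The call held without labelled deficient 3 (-1.28) and without replicate 3 of both groups (-1.10, limma adjusted p = 0.032), and was lost without any other single library (limma adjusted p up to 0.16). Kcne2 of the same helper family overlapped between groups, at 122 ± 28 and 147 ± 30 FPKM (SD, n = 3 each), a difference of 0.27 on the log2 scale and an interval of -0.24 to 0.78 (limma adjusted p = 0.50). In each library the level of Kcne4 was 5.03 to 10.4 times that of Kcnq1 in the controls and 0.713 to 2.22 times in the deficient-labelled libraries. This ratio, like the other ratios between genes given here, is of whole-tissue RNA. Whether the genes of a ratio share cells was not tested.

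The genes Kcns3, Kcng1 and Kcnf1 for silent subunits, which form no channel alone but change the behaviour of other pores, averaged at least 1 FPKM, and they too were divided. Kcns3, the Kv9.3 gene (chromosome 12, 11090202 to 11151056, minus strand), was at 1.98, 1.40 and 1.78 FPKM in controls, against 3.17, 3.95 and 3.48 FPKM in the deficient-labelled group. All of the latter exceeded all controls, and the mean was 2.06 times higher (log2 difference 0.74, SE 0.11, limma adjusted p = 0.025). As with Kcnd3, the call was lost without any single library except labelled deficient 3 (limma adjusted p up to 0.079). The other two genes, chosen after their values were seen, were lower and did not pass. Kcng1 (Kv6.1) was at 2.94, 4.34 and 3.95 FPKM against 0.809, 1.22 and 2.02 FPKM without overlap (log2 difference -1.03, SE 0.21, limma adjusted p = 0.056, and adjusted p = 0.022 without labelled deficient 3). The share of all genes called in that last fit is not given here. Kcnf1 (Kv5.1) was at 9.04, 3.35 and 6.56 FPKM against 1.53, 3.87 and 1.52 FPKM, with overlap between control 2 and labelled deficient 2 (log2 difference -1.14, limma adjusted p = 0.17).

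The most abundant of the voltage-gated pore genes was Kcnh2, the hERG channel that helps end the action potential in heart and in myometrium. It was at 9.19, 9.27 and 9.62 FPKM in controls, against 8.88, 10.3 and 9.71 FPKM in the deficient-labelled group. Its difference of 0.03 had an interval of -0.13 to 0.20, and the sign was negative under median-of-ratios scaling, under quantile normalization and without labelled deficient 2. Kcnh1, a relative of Kcnh2 best known from brain, was scarce but separated, at 0.034, 0.034 and 0.011 FPKM against 0.338, 0.267 and 0.210 FPKM. In estimated reads this was 0.405 to 1.26 per kilobase in the controls and 7.75 to 12.4 in the deficient-labelled libraries. With no filter it rose by 0.31 on the log2(FPKM + 1) scale (limma adjusted p = 0.030, and up to 0.14 with 1 library left out, when only the fit without labelled deficient 3 called it). Kcna5, the Kv1.5 gene of vascular muscle, was at 0.081 to 0.288 FPKM with overlap. Its promoter was the only one of 94 RefSeq windows of 69 matched subunit genes to hold the full receptor element (gtacaacctgttc, 59 bases before the start at its first base), where 0.475% of all windows hold it. None of the 94 held the full estrogen receptor element or the CArG box of muscle genes, which 0.0700% and 1.63% of all windows hold.

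**Figure D3:**
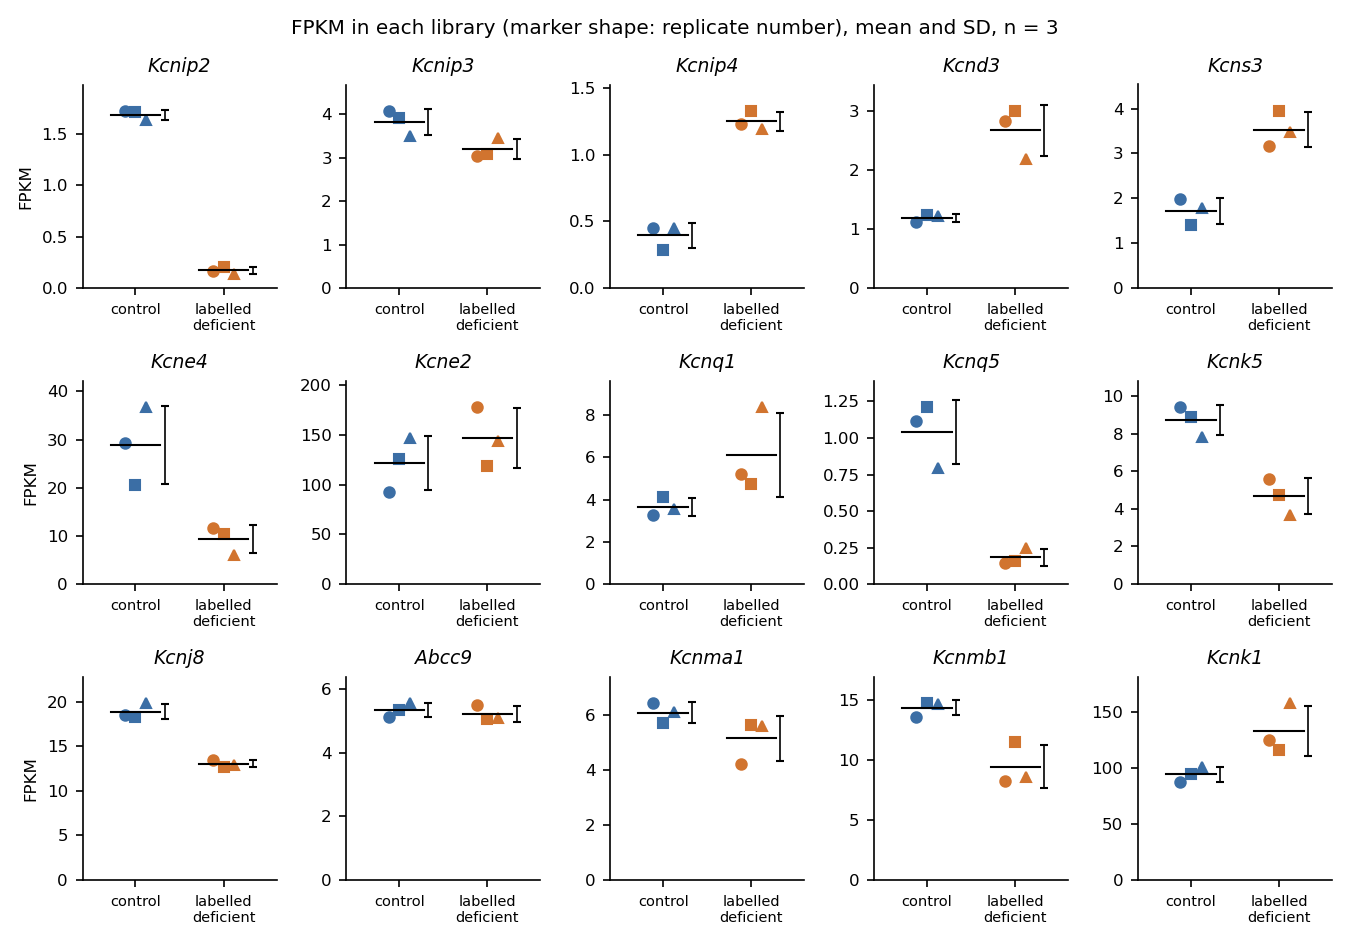
FPKM of 15 subunit genes in each library, on linear axes from 0, with the mean (line) and SD (bar) of 3 control (blue) and 3 labelled deficient (orange) libraries; marker shape gives the replicate number. Kcnip2 and Kcnq5 drop in the deficient-labelled libraries while Kcnip4, Kcnd3 and Kcns3 climb, and Kcnj8 drops while Abcc9 overlaps between groups.

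Calcium-activated channels gave 0 calls with limma among 4 tested, 1 of them (Kcnmb1) at an unadjusted p under 0.05. Kcnma1 encodes the pore of the large-conductance BK channel, the main brake on myometrial excitation, and was at 6.42, 5.68 and 6.11 FPKM in controls, against 4.19, 5.64 and 5.58 FPKM in the deficient-labelled group. The groups did not overlap, though labelled deficient 2 came within a few hundredths of control 2, and the difference of -0.21 had an interval of -0.48 to 0.06 (limma adjusted p = 0.33). Kcnmb1, the beta1 subunit that raises the calcium sensitivity of BK in smooth muscle, was at 13.6, 14.7 and 14.7 FPKM against 8.25, 11.5 and 8.56 FPKM (log2 difference -0.57, SE 0.12, limma adjusted p = 0.067). It passed without labelled deficient 2 (adjusted p = 0.022) and under median-of-ratios scaling, quantile normalization and array weights, fits that called 4.11%, 3.74% and 14.2% of all genes. Kcnmb1 lies within the span of Kcnip1 on the opposite strand, which was at 0.588 ± 0.105 and 0.413 ± 0.037 FPKM (SD, n = 3 each). Per library, the level of Kcnmb1 was 2.12 to 2.59 times that of Kcnma1 in the controls and 1.53 to 2.03 times in the deficient-labelled libraries.

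The small-conductance channels were scarce. Kcnn3 (SK3), which is known to quiet the uterus when overexpressed, was at 0.451, 0.575 and 0.724 FPKM in controls, against 0.481, 0.669 and 1.33 FPKM in the deficient-labelled group. Only labelled deficient 3 stood above the controls. Kcnn2 (SK2) was at 0.385 ± 0.094 and 0.292 ± 0.026 FPKM (SD, n = 3 each). Kcnn4, the intermediate-conductance channel of leukocytes, endothelium and epithelia, was at 2.66 ± 0.81 and 2.53 ± 0.80 FPKM (SD, n = 3 each), and replicate 2 was the highest in both groups. Kcnn1 was at 1.17 ± 0.22 and 1.24 ± 0.10 FPKM (SD, n = 3 each), and the sign of its small difference turned with array weights and without replicate 3 of both groups.

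The inward rectifiers rested on the genes of an ATP-sensitive channel known from smooth muscle. This channel couples the energy state of the cell to its voltage and is built from the pore Kir6.1 (Kcnj8) and the receptor SUR2 (Abcc9). Which cells of the tissue held these RNAs was not tested. The genes are neighbours on chromosome 6, both on the minus strand and 16247 bases apart, with Kcnj8 from 142564837 to 142571614 and Abcc9 from 142587862 to 142702315. Kcnj8 was at 18.5, 18.3 and 19.9 FPKM in controls, against 13.5, 12.7 and 12.9 FPKM in the deficient-labelled group, 1.45 times lower and without overlap (log2 difference -0.50, limma adjusted p = 0.014). The call was lost without control 1, control 2, labelled deficient 1 or labelled deficient 2 (limma adjusted p up to 0.066). Abcc9 was at 5.11, 5.33 and 5.55 FPKM against 5.48, 5.06 and 5.09 FPKM. Its values were mixed between groups, with a difference of -0.03 and an interval of -0.18 to 0.12 (limma adjusted p = 0.83), and the sign was positive after rescaling to a common sum, with array weights and without replicate 3 of both groups. Within each library, where scaling cancels, the level of Kcnj8 was 3.62, 3.43 and 3.58 times that of Abcc9 in the controls and 2.46, 2.52 and 2.54 times in the deficient-labelled libraries.

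The promoters of these neighbours are shown because the pore fell and the difference of its receptor lay near 0, again as 250 bases before the RefSeq start (GRCm38.p6), 5′ to 3′ on the minus strand, with CpG in capitals.
Kcnj8, chr6:142571615-142571864, minus strand: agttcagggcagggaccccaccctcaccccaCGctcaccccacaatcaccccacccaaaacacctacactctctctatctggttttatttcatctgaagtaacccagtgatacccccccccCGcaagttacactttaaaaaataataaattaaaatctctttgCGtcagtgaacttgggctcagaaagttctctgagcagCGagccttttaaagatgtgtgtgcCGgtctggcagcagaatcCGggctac
Abcc9, chr6:142702275-142702524, minus strand: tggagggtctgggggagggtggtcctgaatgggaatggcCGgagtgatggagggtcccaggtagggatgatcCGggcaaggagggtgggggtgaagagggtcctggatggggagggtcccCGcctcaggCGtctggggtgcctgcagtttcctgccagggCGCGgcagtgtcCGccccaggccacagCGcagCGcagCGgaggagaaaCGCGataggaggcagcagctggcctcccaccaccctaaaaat
The Kcnj8 window holds 6 CpG and 49.2% G and C, the Abcc9 window 12 CpG and 66.8% G and C.

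The corresponding pair of pancreas and nerve was almost silent. Kcnj11 (Kir6.2) was at 0.058 FPKM in control 1 and at or under 0.017 FPKM elsewhere, and Abcc8 (SUR1) was at 0.148 to 0.328 FPKM. Kcnj2 (Kir2.1), a classical inward rectifier of muscle and endothelium, was at 0.569 ± 0.108 and 0.600 ± 0.061 FPKM (SD, n = 3 each), and Kcnj13 (Kir7.1), reported from human myometrium, was at or under 0.036 FPKM in every library. Kcnj1, the ROMK channel of kidney epithelium, was decided by 1 library. It was at 1.41, 1.02 and 0.208 FPKM in controls, against 0.615, 0.317 and 11.9 FPKM in the deficient-labelled group, so its log2 difference of 0.74 (limma adjusted p = 0.67) became -0.31 without labelled deficient 3. Kcnj16, an inward rectifier that pairs with others in epithelia and glia, showed its lowest value in that same library, at 0.114 FPKM against 0.396 to 1.62 FPKM in the others.

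Two-pore channels were led by Kcnk1, which made up 87.5% of their sum. The Kcnk1 values given above did not overlap between groups, and the level was 1.41 times higher in the deficient-labelled libraries but did not pass (log2 difference 0.48, SE 0.13, limma adjusted p = 0.11, and adjusted p = 0.041 without replicate 3 of both groups). Kcnk5, the alkaline-sensitive channel TASK-2 (chromosome 14, 20140057 to 20181809, minus strand), went the other way. It was at 9.42, 8.90 and 7.85 FPKM in controls, against 5.59, 4.72 and 3.70 FPKM in the deficient-labelled group, and no library of one group entered the range of the other. Its mean was 1.87 times lower (log2 difference -0.79, SE 0.14, limma adjusted p = 0.036). The call was lost without control 1, control 2, control 3 or labelled deficient 2 (limma adjusted p up to 0.15) and after rescaling every library to a common sum.

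Kcnk2, the stretch-activated channel TREK-1 that has been studied as a relaxant of the stretched uterus, was at 1.80, 1.38 and 1.37 FPKM in controls, against 2.08, 2.66 and 3.07 FPKM in the deficient-labelled group. It was 1.72 times higher without overlap and did not pass (log2 difference 0.51, SE 0.13, limma adjusted p = 0.095). Kcnk6 (TWIK-2) was at 4.91 ± 0.56 and 5.91 ± 1.08 FPKM and Kcnk3 (TASK-1) at 0.517 ± 0.188 and 0.665 ± 0.250 FPKM (SD, n = 3 each), both with overlap. Kcnk9, Kcnk15 and Kcnk16 were listed at 0.

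The families differed in how far their summed level followed their parts. The voltage-gated sum was 204 ± 31 and 207 ± 27 FPKM (SD, n = 3 each). Kcne2 made up 65.2% of it, and without Kcne2 the sum was 83.7, 73.7 and 89.3 FPKM in controls, against 58.3, 63.9 and 59.8 FPKM in the deficient-labelled group. Kcne4, at 28.9 ± 8.1 and 9.32 ± 2.95 FPKM (SD, n = 3 each), accounts for most of that difference. The 30 voltage-gated pore-forming genes went the other way, with sums of 27.3, 28.6 and 28.3 FPKM against 31.1, 32.8 and 35.6 FPKM, 1.18 times higher and without overlap. The 10 silent subunits summed to 14.5, 9.65 and 13.0 FPKM against 6.08, 9.60 and 7.81 FPKM. The calcium-activated sum was 24.9, 26.8 and 26.1 FPKM against 16.9, 23.9 and 20.4 FPKM, with Kcnmb1 as 51.3% of it. The inward rectifier sum overlapped only through Kcnj1 in labelled deficient 3, which brought that library to 31.3 FPKM, where the controls had 26.7 to 28.5 FPKM and the other deficient-labelled libraries 20.3 and 22.2 FPKM. The two-pore sum was 112 ± 6 and 149 ± 23 FPKM (SD, n = 3 each), and without Kcnk1 it was 16.7 to 18.0 and 14.6 to 16.3 FPKM.

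**Figure D4:**
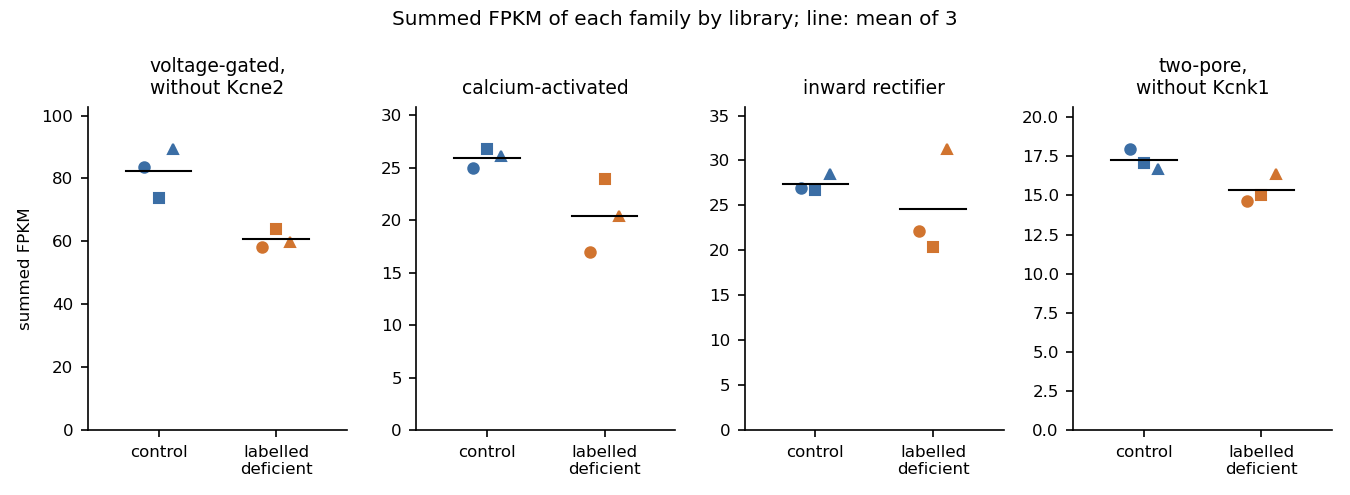
Summed FPKM of the subunits of each family in each library (blue, control; orange, labelled deficient; marker shape, replicate number; line, mean of 3), with Kcne2 and Kcnk1, the most abundant genes, left out of their sums. The groups overlap only in the inward rectifier sum, where labelled deficient 3 stands at 31.3 FPKM.

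Among the 60 subunits under the filter and above 0, the groups did not overlap in 10, with 5 higher and 5 lower, where 12.8% of 7458 such genes were separated, 8.59% higher and 4.25% lower. Besides Kcnip2, Kcnip4, Kcnq5, Kcnh1 and Kcnip1, these were, named after their values were seen, Kcnt2, Kcng4 and Kcns1, which were higher, and Kcna1 and Kcnv2, which were lower. Kcnt2, a sodium-activated channel, was at 0.448 ± 0.094 and 0.627 ± 0.080 FPKM (SD, n = 3 each).

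Genes that work beside these channels were taken as 3 further lists, to be read against the 3.34% of all genes tested that were called (1.34% higher and 1.99% lower). Of 17 partners outside the Kcn rule, 7 were tested, and 1 of them passed. Nedd4l, a ubiquitin ligase that removes several ion channels from the membrane, fell on the log2 scale (difference -0.48, from 8.23 ± 0.30 to 5.64 ± 0.59 FPKM, SD, n = 3 each, limma adjusted p = 0.036), and was not called in any fit with 1 library left out. Lrrc26, the BK partner of epithelia, was at 0.801 ± 0.055 and 1.40 ± 0.37 FPKM and missed the threshold (limma adjusted p = 0.15). Of 13 subunits and regulators of the sodium-potassium pump tested, which builds the potassium gradient, 2 fell and 0 rose. These were the small regulators Fxyd1 (79.5 ± 5.5 to 46.0 ± 2.6 FPKM, limma adjusted p = 0.0071) and Fxyd6 (89.1 ± 5.4 to 62.0 ± 1.7 FPKM, limma adjusted p = 0.018), with SD and n = 3 each. Of 11 depolarising channels tested, 2 fell and 0 rose, among them the T-type calcium channel Cacna1h (8.31 ± 0.37 to 4.70 ± 0.20 FPKM, SD, n = 3 each, limma adjusted p = 0.0048), which fell. Leaving out 1 library, the pump list had 3 calls without labelled deficient 3 and 1 call without control 2, labelled deficient 1 or labelled deficient 2, and the depolarising list 1 call without control 1, control 2 or labelled deficient 1.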

How the data were processed

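The authors deposited FPKM values for 6 libraries (control and labelled deficient, 3 each), 1 column per library. Build mm10 and the tools STAR 2.7.0f, cutadapt 2.7 and DESeq2 1.24.0 are named, without role or order, per the submitters' processing notes. Counter, annotation, strand use and FPKM formula: not given in the sources used here. Columns were matched to libraries by the labels, and 0 were left unmatched. Genes averaging 1 FPKM or more were fitted with limma 3.58.1 in R 4.3.3 (intensity trend, no covariate) on log2(FPKM + 1), labelled deficient minus control, with Benjamini-Hochberg adjustment over all 12500 genes and a threshold of 0.05. This scale understates changes of low genes. On data simulated with known changes the code recovered most of them with the right sign. FPKM times transcript length of single-transcript genes was scanned for the library size that gave whole reads. Positions come from GENCODE M21 (GRCm38). The genes and lists were chosen with earlier results of these data known. Named were the subunits that passed, those with a mean of at least 5 FPKM, the 3 with the smallest p per family, and 22 known from smooth muscle. Any other subunit named was chosen after its values were seen. Some genes of the rule and lists are counted but not reported here by name. The alternatives were pseudocounts of 0.1 and 0.5, other filters and scalings, no trend, array weights, a replicate block and leaving out libraries.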

Additional observations from a re-analysis of the deposited data

How the results depend on the processing

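Over 26 subunits, 2 were called higher and 3 lower. The number higher was 4 with no filter (also with a pseudocount of 0.1 added) and without replicate 3 of both groups, 0 with a minimum mean of 5 FPKM, and 0 to 3 with 1 library left out. The number lower was 5 under median-of-ratios scaling and under quantile normalization (4.11% and 3.74% of all genes called), 7 with array weights (14.2% of all genes called, against 3.34% in the analysis reported) and 0 to 4 with 1 library left out. The counts of 3 higher and 4 lower came from the fit without labelled deficient 3. Its share of all genes called is not given here, so these counts cannot be set against 3.34%. Without replicate 3 of both groups that share was 10.2%. Voltage-gated calls (3) became 6 with no filter, with no filter and a pseudocount of 0.1 and with array weights, 5 without replicate 3 of both groups, 1 with a minimum of 5 FPKM and 0 to 5 with 1 library left out. Calcium-activated calls (0) became 1 with median-of-ratios scaling, quantile normalization and array weights, and 0 to 1 with 1 library left out. The inward rectifier call (1) ranged from 0 to 1 with 1 library left out. The two-pore call (1) became 0 with no filter, with no filter and a pseudocount of 0.1 and after rescaling to a common sum, 2 with array weights and without replicate 3 of both groups, and 0 to 1 with 1 library left out. The partner call (1) became 0 with no filter, with no filter and a pseudocount of 0.1, without replicate 3 of both groups and with any 1 library left out. Pump calls (2) were 3 without replicate 3 of both groups and 1 to 3, and depolarising channel calls (2) 1 to 2, with 1 library left out. The median difference of the subunits tested was 0.046 after rescaling to a common sum, -0.059 with median-of-ratios scaling, -0.047 with quantile normalization, -0.056 with array weights, -0.053 without replicate 3 of both groups and -0.027 to 0.088 with 1 library left out. The cause of these shifts was not tested.

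Signs turned for Abcc9 (0.012 after rescaling to a common sum, 0.019 with array weights, 0.011 without replicate 3 of both groups), Kcnh2 (-0.031 with median-of-ratios scaling, -0.012 with quantile normalization, -0.010 to 0.085 with 1 library left out), Kcnj1 (-0.077 with array weights, -0.59 without replicate 3 of both groups, -0.31 to 1.34 with 1 library left out), Kcnn1 (-0.034 with array weights, -0.0037 without replicate 3 of both groups) and Kcnn4 (-0.22 to 0.12 with 1 library left out). The cause was not tested.

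Libraries with the same replicate number did not deviate together (correlations of -0.136, 0.0789 and -0.132), so the numbers were not treated as a pairing. With the replicate number as a block, 0 subunits were called higher and 1 lower (voltage-gated 0, inward rectifier 0, two-pore 1), the partner list had 0 calls and the pump list 1, and 1.14% of all genes were called. Leaving out each library in the fit with no filter was chosen after seeing the data.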
